A study of Bos taurus with 56 samples.

Results

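The isthmus is the narrow part of the oviduct between the ampulla and the uterus, and here its epithelium on the side of the corpus luteum (CL), the ovarian gland that forms at the site of ovulation and secretes progesterone, was compared with the epithelium of the opposite side in the same heifers. The libraries were chosen by the names of the read-count columns, which gave 5 ipsilateral and 5 contralateral isthmus libraries, 10 of the 56 libraries of the series, paired by the animal tag that ends each name. All 10 came from non-inseminated nulliparous Holstein heifers, named A to E here, whose estrous cycles had been synchronised with an intravaginal progesterone device, a prostaglandin F2 alpha analogue and buserelin, a gonadotrophin-releasing hormone agonist, and which were slaughtered on Day 3 after estrus with a fresh CL on a single ovary. The epithelial cells of each segment were scraped from the dissected oviduct, and each library is total RNA of those cells. The isthmus of 5 non-lactating and 4 lactating cows, taken on Day 3 after estrus at about 60 days after calving, and the ampulla of the same 5 heifers, were used only for comparison.

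As background, the oviduct epithelium is made of ciliated cells, which move gametes and embryos, and of secretory cells, which release glycoproteins, ions and nutrients into the oviductal fluid. The isthmus stores spermatozoa before ovulation and holds the early embryo before it passes to the uterus. Estradiol and progesterone act on these cells through nuclear receptors, and ovarian steroids can reach the oviduct of the same side through local vessels as well as through the general circulation. A heifer therefore carries an oviduct close to the CL and a distant oviduct at the same blood progesterone level. The side of the CL is also the side of ovulation, and the comparison of sides within a heifer cannot tell these apart. The study states that its design cannot separate an effect of the unfertilised oocyte and its cumulus cells. It considers a detectable effect of a single oocyte unlikely.

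The libraries held 3875324 to 5556310 counts on genes ipsilaterally (median 5242322) and 2238157 to 4990519 contralaterally (median 4152894), and in 4 of 5 heifers the ipsilateral library was the deeper. The share of uniquely aligned reads that fell on genes was 21.4 to 22.1% ipsilaterally and 19.5 to 20.9% contralaterally, higher ipsilaterally in 5 of 5 heifers (two-sided exact permutation test of the signs over pairs, p = 0.0625, the smallest that 5 pairs can give). Its part in the results below was not tested. In the 28 isthmus libraries, 200 genes were picked that varied most between animals relative to the variation between the sides of an animal. Over these genes each isthmus library resembled the other isthmus library of its own animal most, at a correlation of at least 0.84. The choice of genes favours such matches, so they are no independent check of the pairing. On the first principal component of the 10 libraries, which held 29.8% of the variance, the ipsilateral libraries lay at 31.1, 19.9, 26, -7.9 and 44.7 in heifers A to E and the contralateral ones at -19.7, -44.3, 7.3, -32.7 and -24.3. The contralateral library of heifer C and the ipsilateral library of heifer D therefore lay nearest to the other side, while each heifer's ipsilateral library lay above its contralateral one.

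The labelled tissue was checked against its defining markers. The 8 general epithelial markers, led by EPCAM, summed to 1930 to 2430 CPM (counts scaled to a common library total after normalisation) ipsilaterally and to 1650 to 1860 CPM contralaterally, higher ipsilaterally in 5 of 5 heifers (exact permutation test, p = 0.0625). Of these 8 markers 2 were differentially expressed genes (DEGs, adjusted p under 0.05) that rose, the keratins KRT8 (1.54-fold) and KRT18 (1.46-fold, adjusted p = 0.00937, or 0.0516 without heifer B). The tight junction gene CLDN4 fell, from 34.9 to 58.4 CPM contralaterally to 20.1 to 31.5 CPM ipsilaterally, with no overlap (1.68-fold, adjusted p = 0.00795). The 20 ciliated-cell markers, led by the dynein gene DNAH9, summed to 7200 to 8880 CPM ipsilaterally and 8500 to 10900 CPM contralaterally. Among them 1 gene rose, CAPS, and 1 fell, DNAH5 (adjusted p = 0.00929, or 0.0501 without heifer B). OVGP1, which codes for the oviduct-specific glycoprotein of secretory cells, was at 6120, 13500, 6540, 11800 and 153 CPM ipsilaterally in heifers A to E and at 6550, 18700, 96.4, 14800 and 3110 CPM contralaterally. The ipsilateral library of heifer E and the contralateral library of heifer C stood apart from the other 8, the sides overlapped, and OVGP1 was not a DEG (log2 fold change -0.22 ± 1.04 (SE, n = 5 heifers), adjusted p = 0.912). Of the 6 secretory-cell markers tested, 3 were DEGs, all higher: WFDC2 (1.86-fold, adjusted p = 0.00156), the folate receptor FOLR1 (1.75-fold, adjusted p = 0.019) and the keratin KRT7 (1.39-fold, adjusted p = 0.0247). The other 3 had negative log2 fold changes without being DEGs, and the list median was 0.19. Summed, the 7 secretory-cell markers were at 796 to 14200 CPM ipsilaterally and 539 to 19100 CPM contralaterally, higher ipsilaterally in 1 of 5 heifers. FOLR1 was not a DEG without heifer A, B or E (0.0749, 0.0888 and 0.0694), nor was KRT7 (0.0629, 0.125 and 0.0889).

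Markers of other cells were low, and the sums of 3 of their lists lay on the same side in every heifer, which 5 pairs can show at an exact permutation p of no less than 0.0625. The 10 smooth muscle markers summed to 68.1 to 133 CPM ipsilaterally and 38.9 to 88.2 CPM contralaterally, higher ipsilaterally in 5 of 5 heifers, and MYH11, smooth muscle myosin heavy chain, was the single DEG of the 3 tested (adjusted p = 0.025). MYH11 was lower ipsilaterally in heifer C and was not a DEG without heifer A, B, D or E (0.0573, 0.107, 0.0647 and 0.104), without the pairing (0.139) or with robust dispersions (0.0864). The 12 fibroblast markers, with DPT at 0 in all 10 libraries, summed to 153 to 282 CPM ipsilaterally and 210 to 346 CPM contralaterally, lower ipsilaterally in 5 of 5 heifers, although COL6A3 rose (2.53-fold, adjusted p = 0.00273) while FBLN1 fell (1.51-fold, adjusted p = 0.0122, or 0.124 without the pairing). The 6 B or plasma cell markers summed to 2.77 to 4.61 CPM ipsilaterally and 0 to 1.52 CPM contralaterally, led by MZB1 (adjusted p = 0.0123, or 0.0552 without heifer B), with MS4A1, CD79B and POU2AF1 at 0. Endothelial markers summed to 21.8 to 31.4 and 17.2 to 67 CPM, T lymphocyte markers to 13.8 to 30.4 and 20.6 to 33.1 CPM, macrophage markers to 26.9 to 50.7 and 23.4 to 57.9 CPM, and granulosa or luteal cell markers, with FSHR at 0, to 10.5 to 31.8 and 21.1 to 39.6 CPM on the ipsilateral and contralateral sides, and none of these 4 lists held a DEG. Red blood cell markers summed to at most 0.628 CPM ipsilaterally and 1.44 CPM contralaterally, with HBA, HBB and HBA1 at 0. In scraped tissue, fewer cells of a type and less RNA per cell cannot be told apart, and the part of these markers in the results below was not tested.

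Of 13548 genes tested, 1916 (14.1%) were DEGs between sides, 1019 (7.52%) up-regulated and 897 (6.62%) down-regulated ipsilaterally, while the median log2 fold change of all genes tested was -0.02. These shares of all genes stand beside the counts of every gene list below. The lists were drawn up with earlier results of these data known. Many of the differences were small, as 775 DEGs differed by less than 1.5-fold, whereas 181 rose and 227 fell by more than 2-fold. The direction was the same in 5 of 5 heifers for 1744 of the 1916 DEGs, and the share of all genes with such agreement was not counted. The sides did not overlap for 893 of the 1916 DEGs. Among all 13548 genes tested they did not overlap for 1179 (8.7%), 4.7% with every ipsilateral library higher and 4% with every one lower. The DEGs were called on these same libraries, which favours agreement and separation, so neither count is independent evidence. The number of DEGs depended on the heifers included: it was 897 without heifer A, 638 without heifer B and 848 without heifer E, but 2272 without heifer C and 1744 without heifer D. Without heifers C and E, whose OVGP1 levels stood apart, 1589 genes were DEGs. When the pairing of the sides by animal was left out of the model, 1361 genes were DEGs, of which 1288 were also DEGs in the paired model.

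**Figure D1:**
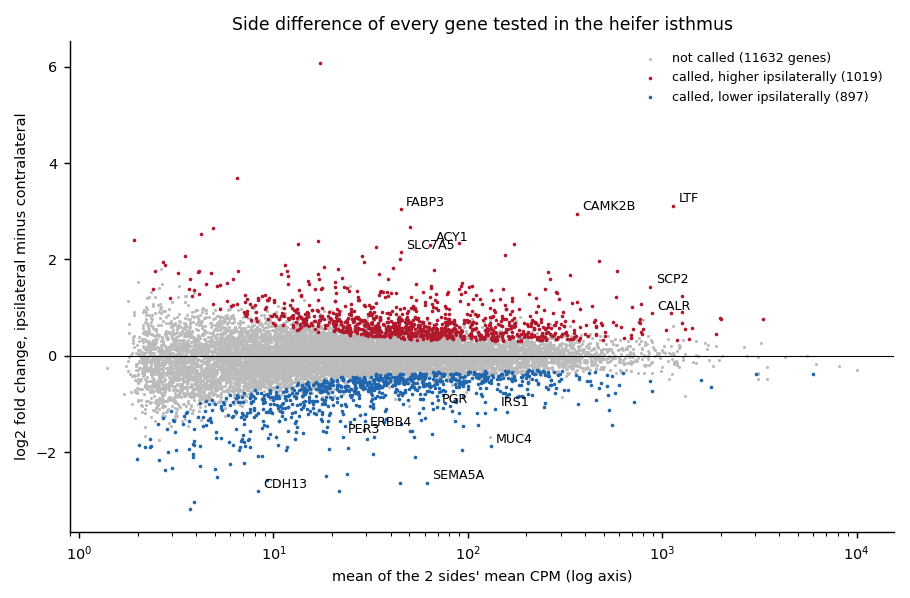
Each point is a gene tested in the heifer isthmus, placed by its mean level (CPM, log axis) and its log2 fold change (ipsilateral minus contralateral); red and blue points are the 1019 DEGs higher and the 897 DEGs lower ipsilaterally, grey points the other genes. DEGs of both directions occur over the whole range of levels, and LTF, the iron-binding glycoprotein, combines a high level with a log2 fold change of 3.11.

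The most abundant of the genes with large increases was LTF, which codes for lactoferrin, an antimicrobial iron-binding glycoprotein of mucosal secretions. LTF was at 2590, 1360, 3480, 186 and 2610 CPM ipsilaterally in heifers A to E and at 184, 90.6, 740, 110 and 103 CPM contralaterally. Each ipsilateral library exceeded its contralateral partner, but the sides overlapped, because heifer D was low ipsilaterally and heifer C high contralaterally. The fitted increase was 8.66-fold (log2 fold change 3.11 ± 0.48, adjusted p = 0.00307). FABP3, a cytoplasmic fatty acid-binding protein, was at 93.8, 76.9, 104, 32.3 and 83.4 CPM ipsilaterally and at 9.43, 2.16, 39.8, 3.79 and 5.59 CPM contralaterally, an 8.22-fold increase (3.04 ± 0.39, adjusted p = 0.00147). CAMK2B, the beta subunit of the calcium/calmodulin-dependent protein kinase II, was at 778, 614, 626, 390 and 595 CPM against 85.3, 18.2, 406, 75 and 43.7 CPM, a 7.74-fold increase (2.95 ± 0.49, adjusted p = 0.00442). For FABP3 and CAMK2B, too, it was the contralateral library of heifer C that reached into the ipsilateral range. With dispersions estimated robustly, LTF and CAMK2B missed the threshold (adjusted p = 0.0711 and 0.0855).

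The sides did not overlap for 7 of the other 9 genes with the largest increases, against 4.7% of all genes tested with every ipsilateral library higher. These genes were chosen on the same libraries by the size and shared direction of their change, which favours such separation. SUSD2, which codes for a sushi domain-containing membrane protein, was at 42.7 to 154 CPM ipsilaterally and 6.73 to 27 CPM contralaterally (6.43-fold, adjusted p = 0.0014). ACY1, an aminoacylase that frees amino acids from their N-acetylated form, was at 49.4 to 148 CPM against 14.1 to 39 CPM (4.91-fold, adjusted p = 0.00075). FOLR3, a folate receptor gene whose reads may be shared with related folate receptor genes, was at 121 to 446 CPM against 30 to 81.5 CPM (5.03-fold, adjusted p = 0.000917). Heifer D had the lowest ipsilateral level of all 3 genes. ABCC8, a regulatory subunit of ATP-sensitive potassium channels, rose 5-fold (12.3 to 31.9 against 2.1 to 5.59 CPM), PLA2G4D, a cytosolic phospholipase A2, rose 4.77-fold (39.3 to 70.1 against 2.45 to 25.4 CPM), and TUBB3, a beta tubulin, rose 5.21-fold (8.8 to 47.1 against 3.79 to 8.71 CPM). GADD45G, a stress-induced regulator of growth arrest, was nearly absent contralaterally, at 0.449, 0.719, 2.39, 0.199 and 0 CPM in heifers A to E, against 29.4, 11.2, 11.9, 3.98 and 4.36 CPM ipsilaterally (3.69 ± 0.45 on the log2 scale, adjusted p = 0.00137). ACP5, tartrate-resistant acid phosphatase, rose 4.29-fold with sides that overlapped.

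Genes without a symbol of their own also differed, and 2 of them are given here although they were chosen after their values were seen. LOC104968478, a protein-coding gene in the RefSeq annotation of a later genome assembly, was at 110, 144, 107, 250 and 134 CPM ipsilaterally and at 28.3, 20.9, 20.2, 61.6 and 21.3 CPM contralaterally, a 5.11-fold difference (2.35 ± 0.14, adjusted p = 4.38e-05). LOC101906669, a long non-coding RNA gene there, was at 49.7, 38.3, 54.3, 6.49 and 22.6 CPM ipsilaterally and at 0.898, 0, 1.52, 0 and 0 CPM contralaterally (adjusted p = 4.54e-05). Of the 1916 DEGs, 219 carried such LOC symbols.

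Among the largest decreases were genes of the cell surface, the matrix and ion channels. SEMA5A, a transmembrane semaphorin known for guiding axons and cells, was at 12.4, 9.08, 8.42, 29.3 and 32.6 CPM ipsilaterally in heifers A to E and at 148, 86.1, 75.1, 90.4 and 124 CPM contralaterally, a 6.25-fold decrease (-2.64 ± 0.27, adjusted p = 0.00075). GRIN2A, a subunit of NMDA-type glutamate receptors, was at 2.95, 6.18, 12.2, 39 and 11.8 CPM against 51.2, 71.2, 56.8, 76.6 and 122 CPM (6.27-fold lower, adjusted p = 0.00203). CDH13, a cadherin anchored to the membrane by a lipid, was at 0.257 to 4.82 CPM against 8.38 to 24.7 CPM (7.08-fold lower, adjusted p = 0.00204). The sides did not overlap for any of these 3 genes, against 4% of all genes tested with every ipsilateral library lower. These genes, too, were chosen on the same libraries by the size and shared direction of their change. Heifer D had the highest ipsilateral level of GRIN2A and CDH13.

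The matrix genes MATN1 (matrilin, 7.06-fold), COL22A1 (a collagen, 5.5-fold) and LTBP1 (which binds latent transforming growth factor beta, 4.27-fold) fell as well, and LTBP1 was at 8.22 to 35.6 CPM ipsilaterally and 66 to 146 CPM contralaterally. NKD1, an inhibitor of WNT signalling, fell 5.96-fold, RYR3, an intracellular calcium release channel, 4.15-fold, SLC6A15, a neutral amino acid transporter, 4.27-fold, and VNN1, a pantetheinase, 3.86-fold. A decrease in 5 of 5 heifers was a condition for naming these genes, so it is no result. The sides overlapped for MATN1 and RYR3. OTOG, otogelin, fell 5.71-fold, but heifer D was at 11.5 CPM ipsilaterally where the other 4 heifers were at 0 to 0.257 CPM, and it was no longer a DEG without heifer B or E (adjusted p = 0.0654 and 0.0757) or without the pairing (adjusted p = 0.309).

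**Figure D2:**
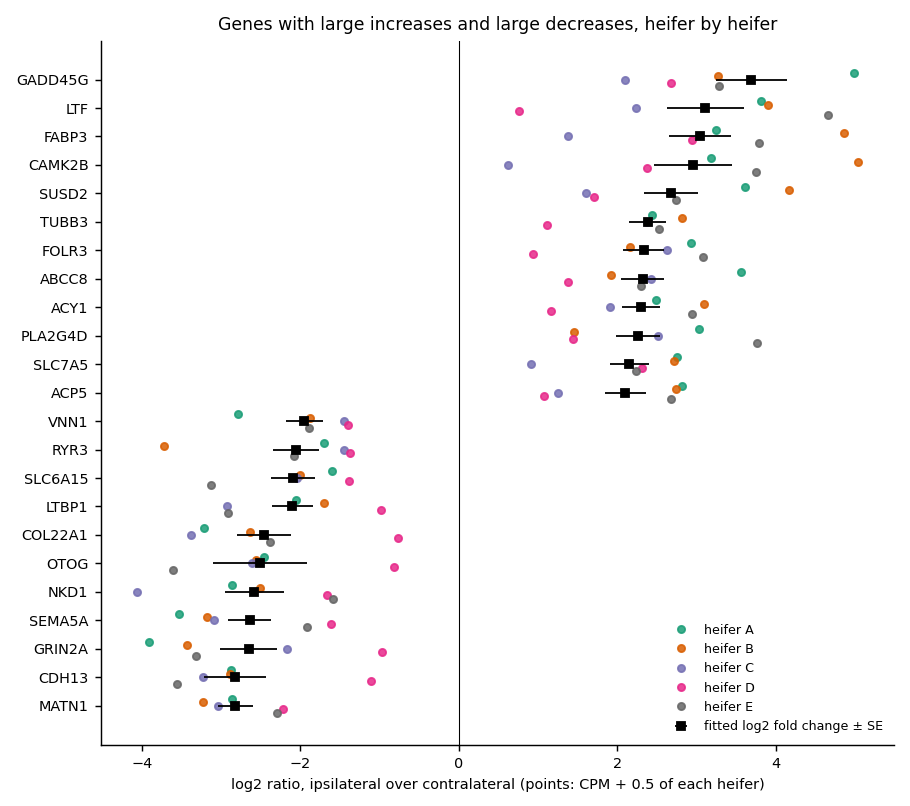
For genes with large increases and large decreases, coloured points give the log2 ratio of ipsilateral to contralateral CPM in each heifer (0.5 added to each CPM) and black squares the fitted log2 fold change with its SE. Every point lies on the side of 0 of its gene's fitted value, which the choice of these genes required. For most genes the point nearest to 0 is that of heifer D.

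Of 7 steroid receptor genes tested, 4 were DEGs, all lower, with a list median of -0.49 on the log2 scale. PGR, the progesterone receptor, was at 37.3, 42.1, 33.9, 72.7 and 31.1 CPM ipsilaterally in heifers A to E and at 67.3, 84.2, 64.7, 77.2 and 181 CPM contralaterally, 2.08-fold lower (-1.06 ± 0.26, adjusted p = 0.0231). It was lower in 5 of 5 heifers, least in heifer D and most in heifer E, and the ipsilateral level of heifer D lay within the contralateral range. NR3C2, the mineralocorticoid receptor, was at 12 to 24.9 CPM against 27 to 45.4 CPM, with no overlap (1.84-fold lower, adjusted p = 0.00409). ESR1, the estrogen receptor alpha, was at 255 to 388 CPM against 288 to 532 CPM (1.4-fold lower, adjusted p = 0.0245). The estrogen receptor ESR2 (0.19), the progesterone membrane component PGRMC2 (-0.07) and the glucocorticoid receptor NR3C1 (-0.51 on the log2 scale) were not DEGs. Of this list 1 gene fell without heifer A, 1 without heifer B, 2 without heifer E and 2 without the pairing. NR3C2 kept its call without each heifer. PGR lost it without heifer A or B (adjusted p = 0.061 and 0.0742) and with robust dispersions (0.116), and ESR1 without heifer A, B or E (0.0816, 0.109 and 0.101) or without the pairing (0.0739).

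In the 3 lists of energy metabolism the DEGs all rose. In glycolysis, 9 of 14 tested genes rose (list median 0.54), against 7.52% of all genes. ALDOA, the aldolase of the pathway, was at 445, 402, 396, 283 and 501 CPM ipsilaterally and at 194, 140, 239, 171 and 157 CPM contralaterally, with no overlap (2.25-fold, adjusted p = 0.00145). ENO1, an enolase, was at 157 to 251 CPM against 104 to 141 CPM (1.81-fold, adjusted p = 0.00256), and TPI1, triosephosphate isomerase, at 101 to 150 CPM against 68.6 to 81.2 CPM (1.63-fold, adjusted p = 0.00618). PFKM (-0.38), HK1 (0.25) and LDHA (0.84 on the log2 scale) were among the 5 that did not pass the test. The number of glycolytic DEGs was 6 without heifer A, 3 without heifer B and 4 without heifer E.

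In the tricarboxylic acid cycle, 7 of 15 tested genes rose (list median 0.34), led by OGDH, a subunit of the oxoglutarate dehydrogenase complex, at 174 to 289 CPM against 65.7 to 135 CPM (2.21-fold, adjusted p = 0.00201). Of 40 nuclear genes of the respiratory chain, 24 rose and all 40 had a positive log2 fold change (median 0.53). ATP5G1, a subunit of the ATP synthase ring, was at 15.7 to 23.9 CPM against 5.39 to 9.83 CPM (2.4-fold, adjusted p = 0.003), and COX5A, a subunit of cytochrome c oxidase, at 54 to 67.5 CPM against 29.3 to 35.5 CPM (1.98-fold, adjusted p = 0.000917), neither with overlap. CYCS, cytochrome c itself, rose 2.09-fold (adjusted p = 0.00721). Without heifers A, B and E in turn, 17, 13 and 15 respiratory chain genes and, each time, 3 genes of the tricarboxylic acid cycle were DEGs. PGD, which makes NADPH in the pentose phosphate pathway, was at 162 to 244 CPM against 72.2 to 153 CPM (1.98-fold, adjusted p = 0.00104).

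Of 42 genes of folding and translocation in the endoplasmic reticulum, 16 rose and none fell, and 41 had a positive log2 fold change (median 0.33). CALR, the calcium-binding chaperone calreticulin, was at 1100, 1270, 1170, 815 and 1420 CPM ipsilaterally and at 491, 687, 617, 605 and 700 CPM contralaterally (1.84-fold, adjusted p = 0.00161). The sides did not overlap, and heifer D had the smallest difference. MANF, a factor released under endoplasmic reticulum stress, was at 25.9 to 38.6 CPM against 10.3 to 16.8 CPM (2.05-fold, adjusted p = 0.00476), SEC61G, a part of the protein-conducting channel, rose 1.99-fold (adjusted p = 0.00411), and CREB3L4, a transcription factor of the endoplasmic reticulum membrane, was at 82.5 to 116 CPM against 47.1 to 65 CPM (1.82-fold, adjusted p = 0.00204). The stress regulators XBP1 (0.23) and ATF6 (0.24 on the log2 scale) were not DEGs. In N-glycosylation and the supply of nucleotide sugars, 19 of 39 tested genes rose and 3 fell (median 0.38). TSTA3, which makes GDP-fucose, was at 41.9 to 69 CPM against 24.1 to 39 CPM (2.02-fold, adjusted p = 0.00317), and AMDHD2, which recycles N-acetylglucosamine, at 23.9 to 50.6 CPM against 8.39 to 23.3 CPM (2.22-fold, adjusted p = 0.00779). OGT, which attaches single N-acetylglucosamine residues to proteins inside the cell, fell 1.55-fold (341 to 485 against 575 to 687 CPM, adjusted p = 0.00893). NPL, which degrades sialic acid, was at 1.55 to 15.3 CPM against 12.4 to 66.7 CPM (3.84-fold lower, adjusted p = 0.0192), but missed the threshold without heifer A, B or E (0.0617, 0.0527 and 0.0942) and with robust dispersions (0.12). Without heifers A, B and E in turn, 10, 6 and 9 genes of the glycosylation list rose and 1 fell each time. Of the 6 secretory-cell markers tested, WFDC2, FOLR1 and KRT7 rose and the other 3 had negative log2 fold changes. The part of secretory cells in these differences was not tested.

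For protein synthesis, 5 of 18 aminoacyl-tRNA synthetase genes rose and none fell (median 0.3), for example WARS by 1.52-fold, MARS by 1.49-fold and AARS by 1.41-fold. These increases were small, and their calls depended on the heifers included. Without heifer B none of the 18 genes was a DEG (adjusted p = 0.0624, 0.0547 and 0.0654 for WARS, MARS and AARS). The log2 fold changes of WARS, MARS and AARS were then 0.53, 0.48 and 0.47, against 0.6, 0.58 and 0.49 with all heifers. Without heifer A or E there were 2 DEGs (0.0501 for WARS without heifer A and 0.0535 for AARS without heifer E). Of 29 ribosome biogenesis genes, 5 rose and 1 fell (median 0.21), against 7.52% and 6.62% of all genes. Without heifers A, B, D and E in turn, 3, 2, 3 and 3 rose. NHP2, a protein of small nucleolar ribonucleoproteins, was at 12.4 to 24.7 CPM against 8.78 to 10.9 CPM (2.09-fold, adjusted p = 0.00478). MYC, the transcription factor that promotes growth, was the member that fell, from 10.5 to 14.7 CPM contralaterally to 3.14 to 6.12 CPM ipsilaterally (2.71-fold, adjusted p = 0.00371).

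**Figure D3:**
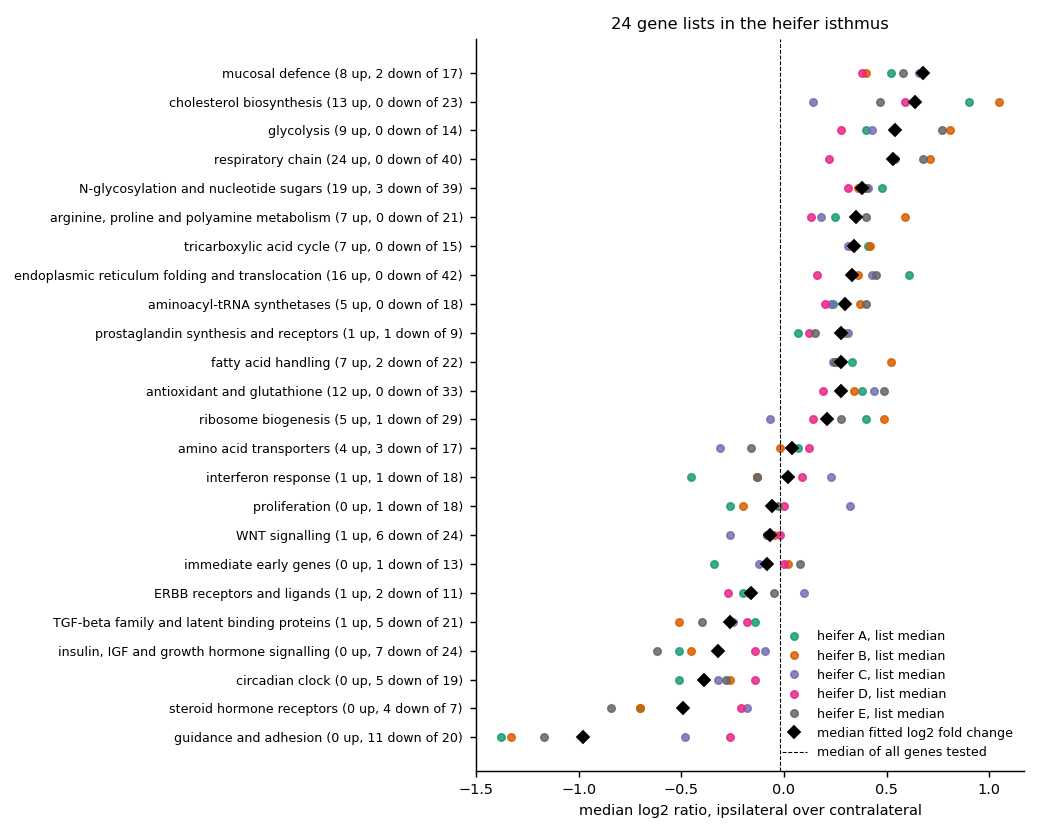
For 24 gene lists, coloured points give the median log2 ratio (ipsilateral over contralateral) of the list's tested genes in each heifer, black diamonds the median fitted log2 fold change, and the dashed line the median of all genes tested (-0.02); the labels give how many of the tested genes were DEGs up and down. The lists of energy metabolism, endoplasmic reticulum, glycosylation and cholesterol synthesis lie to the right of the line in every heifer, and those of the circadian clock, insulin signalling, steroid receptors and guidance to its left.

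In arginine, proline and polyamine metabolism, 7 of 21 tested genes rose and none fell (median 0.35). ODC1, ornithine decarboxylase, the rate-limiting enzyme of polyamine synthesis, was at 47.8, 49.7, 52.6, 38.3 and 58.8 CPM ipsilaterally in heifers A to E and at 17.5, 18.2, 27.4, 18.2 and 21 CPM contralaterally (2.4-fold, adjusted p = 0.00075). All 5 ipsilateral libraries exceeded all contralateral ones. ALDH18A1, which starts proline synthesis from glutamate, was at 211 to 273 CPM against 133 to 183 CPM (1.58-fold, adjusted p = 0.00253). GOT1 (1.64-fold) and GOT2 (1.4-fold), the aspartate aminotransferases, rose as well, with GOT1 not a DEG without heifer E (adjusted p = 0.0532) and GOT2 not without heifer B (0.0534). SMS, spermine synthase, did not pass the test (1.58-fold, adjusted p = 0.0829, higher in 4 of 5 heifers). The number of DEGs of this list was 4 without heifer B and 4 without heifer E.

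Amino acid transporters changed in both directions, with 4 of 17 tested genes higher and 3 lower, against 7.52% and 6.62% of all genes. SLC7A5, the light chain of the large neutral amino acid transporter, was at 121, 70.5, 87, 40.6 and 43.1 CPM ipsilaterally and at 17.5, 10.3, 46.2, 7.78 and 8.73 CPM contralaterally (4.43-fold, adjusted p = 0.00111). Heifer C alone reached the ipsilateral range on the contralateral side. Its heavy chain partner SLC3A2 rose too (0.73 on the log2 scale), and SLC25A29, a mitochondrial carrier of basic amino acids, was at 41.8 to 80.9 CPM against 14 to 28.1 CPM (3.02-fold, adjusted p = 0.00075). SLC1A5, a glutamine transporter, was at 51.9 to 77.4 CPM against 25.6 to 47.5 CPM (1.89-fold, adjusted p = 0.00317). SLC38A2 (-0.82), SLC1A4 (-0.61) and SLC6A15 (-2.09 on the log2 scale), which carry neutral amino acids, fell.

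Of 23 tested genes of cholesterol biosynthesis, 13 rose and none fell, and 22 had a positive log2 fold change (median 0.64). HMGCS1, which makes a precursor of mevalonate, was at 247, 319, 274, 361 and 250 CPM ipsilaterally in heifers A to E and at 115, 95.9, 220, 189 and 175 CPM contralaterally (1.88-fold, adjusted p = 0.00778). The sides did not overlap, and heifer C had the highest contralateral level. The medians of the list were 0.9, 1.05, 0.14, 0.59 and 0.47 in heifers A to E, lowest in heifer C, and 6, 6 and 7 genes were DEGs without heifers A, B and E, against 16 without both heifer C and heifer E.

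Of 22 tested genes of fatty acid handling, 7 rose and 2 fell (median 0.28), against 7.52% and 6.62% of all genes. Beside FABP3, SCP2, a carrier of sterols and acyl-CoA, was at 1300, 1070, 1350, 931 and 1530 CPM ipsilaterally and at 414, 245, 966, 433 and 443 CPM contralaterally (2.69-fold, adjusted p = 0.00214). ACSL4, an acyl-CoA synthetase that prefers arachidonic acid, was at 209 to 378 CPM against 110 to 185 CPM (2.28-fold, adjusted p = 0.000514), and DBI, the acyl-CoA-binding protein, at 44 to 109 CPM against 17.1 to 59.2 CPM (2.78-fold, adjusted p = 0.00306). The sides did not overlap for ACSL4, while the contralateral library of heifer C lay within the ipsilateral range for SCP2 and DBI. PDK4 (-1.17 on the log2 scale), the kinase that holds back pyruvate oxidation, fell. Of 9 genes of prostaglandin synthesis and reception, 1 rose and 1 fell, against 7.52% and 6.62% of all genes. PLA2G4B, another cytosolic phospholipase A2, fell 3.28-fold (1.8 to 5.45 against 8.08 to 14.7 CPM, adjusted p = 0.00567). AKR1B1, an aldose reductase with prostaglandin F synthase activity, rose 1.68-fold (adjusted p = 0.03) but not without heifer A, B or E (0.0803, 0.124 and 0.122) or without the pairing (0.0718).

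Products of mucosal defence changed unequally, with 8 of 17 tested genes higher and 2 lower (median 0.68). SAA3, an acute phase serum amyloid gene whose reads may be shared with related genes, was at 426, 492, 283, 430 and 413 CPM ipsilaterally and at 143, 145, 171, 176 and 187 CPM contralaterally (2.46-fold, adjusted p = 0.00075). WFDC2, a secreted protease inhibitor-like protein, was at 346 to 491 CPM against 167 to 269 CPM (1.86-fold, adjusted p = 0.00156). Neither overlapped between sides. MUC4, a membrane mucin, moved the other way, from 365, 199, 206, 168 and 65.3 CPM contralaterally to 122, 40.2, 61.6, 72.9 and 8.22 CPM ipsilaterally (3.68-fold lower, adjusted p = 0.00075), with levels lower in both libraries of heifer E, and it was not a DEG without the pairing (0.0606). MUC15 (-0.88 on the log2 scale) fell as well. Of this list 5 genes rose without heifer A, B or E, and 4 fell without heifer C. BPIFA1, an antimicrobial airway protein gene, rose 3.29-fold from at most 2.61 CPM to at most 6.12 CPM (adjusted p = 0.0197), but not without heifer A, B or E (0.0601, 0.0883 and 0.0627).

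Of 33 antioxidant and glutathione genes, 12 rose and none fell (median 0.28), against 7.52% and 6.62% of all genes. TXN, thioredoxin, was at 50, 65.9, 59.5, 35.2 and 45.7 CPM ipsilaterally and at 19.8, 21.6, 20.2, 20.1 and 17.1 CPM contralaterally (2.54-fold, adjusted p = 0.00075), and PRDX1, a peroxiredoxin, at 129 to 211 CPM against 69.5 to 107 CPM (2-fold, adjusted p = 0.00215). Both were separate between sides. GSTM1, a glutathione transferase of a family of near-identical genes that may share reads, rose 2.07-fold (adjusted p = 0.00499). MT3, a metallothionein, rose 2.56-fold (adjusted p = 0.0227), but was level in heifer C (16.4 against 16.5 CPM), and its call was lost without heifer A, B, D or E (0.0628, 0.0983, 0.0526 and 0.0815). Without heifers A, B and E in turn, 6, 5 and 5 genes of the list rose. TIMP1, an inhibitor of matrix metalloproteinases, and TFRC, the transferrin receptor that takes up iron, rose 2.64-fold and 2.51-fold (adjusted p = 0.0014 and 0.0016). The study chose TIMP1, TFRC and others of the genes described here on these samples, among them FABP3, CAMK2B, SCP2, ALDOA, ODC1 and IRS1. It drew them as DEGs shared by heifers and both groups of cows, so their direction here and in the cows is not independent evidence.

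**Figure D4:**
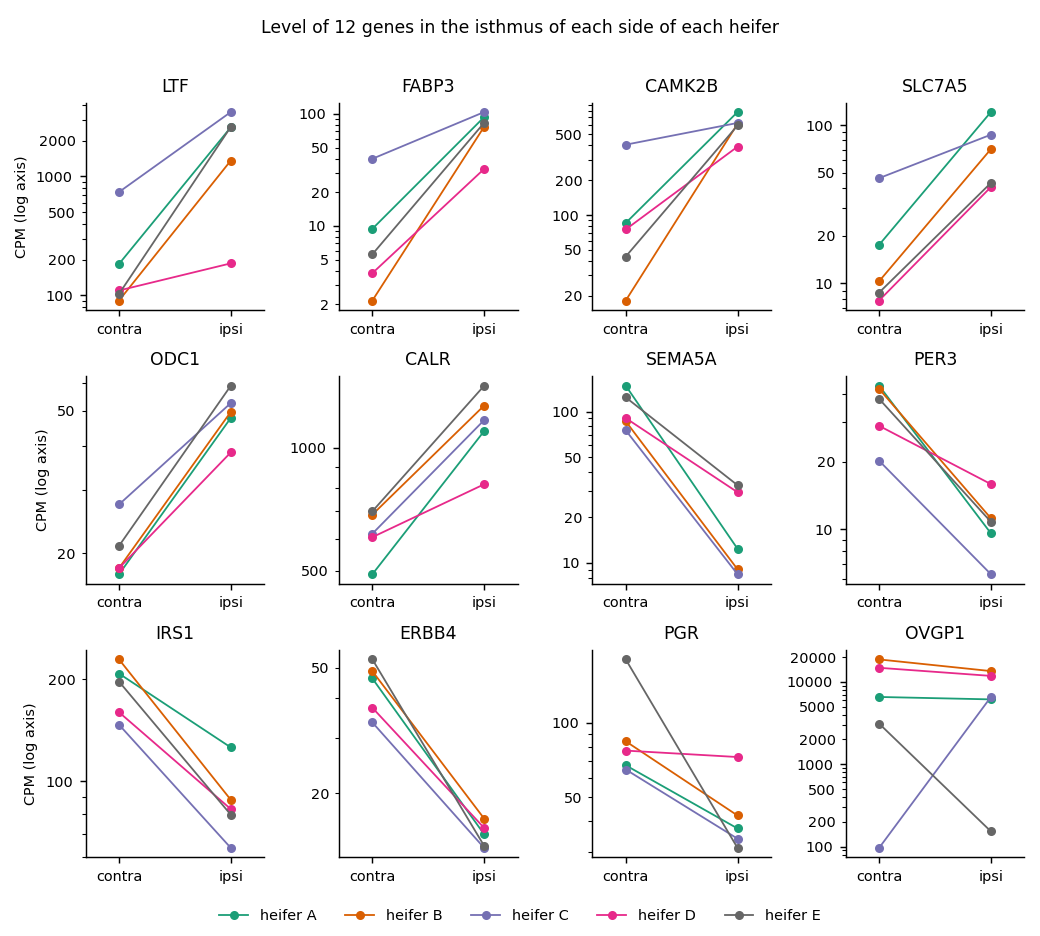
Levels of 12 genes (CPM, log axis) in the contralateral and ipsilateral isthmus, with a line for each heifer. The lines of LTF, FABP3, CAMK2B, SLC7A5, ODC1 and CALR rise in all 5 heifers and those of SEMA5A, PER3, IRS1, ERBB4 and PGR fall, whereas OVGP1 rises in heifer C, falls steeply in heifer E and falls slightly in the others.

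Of 24 tested genes of insulin, insulin-like growth factor and growth hormone signalling, 7 fell and none rose (median -0.32). IRS1, an adaptor of the insulin receptor, was at 126, 88.3, 63.7, 82.9 and 79.8 CPM ipsilaterally and at 208, 229, 147, 160 and 197 CPM contralaterally (2.16-fold lower, adjusted p = 0.00075), and IRS2, its homologue, at 7.54 to 14.7 CPM against 19.2 to 41.5 CPM (2.56-fold lower, adjusted p = 0.00719). GHR, the growth hormone receptor, was at 2.77 to 7.12 CPM against 7.18 to 35.6 CPM (3.71-fold lower, adjusted p = 0.00232). All 3 were separate between sides. The receptors INSR (-0.48) and IGF1R (-0.45 on the log2 scale) fell as well. SESN3, a sestrin that restrains the growth regulator mTORC1, fell 1.97-fold (adjusted p = 0.0167) but was higher ipsilaterally in heifer C, and it was not a DEG without heifer A, B or E (0.0628, 0.0642 and 0.0791) or with robust dispersions (0.0888).

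Among receptors and ligands of the ERBB family, 1 of 11 tested genes rose and 2 fell, against 7.52% and 6.62% of all genes. ERBB4, a receptor of neuregulins, was at 14.8, 16.6, 13.4, 15.5 and 13.6 CPM ipsilaterally and at 46.2, 48.7, 33.5, 37.3 and 53.1 CPM contralaterally (2.92-fold lower, -1.54 ± 0.14, adjusted p = 0.000514). The ipsilateral levels spanned a narrow range in all 5 heifers. The ligand TGFA rose 1.49-fold (adjusted p = 0.0192) and the ligand BTC fell 1.37-fold (adjusted p = 0.0374), but neither call was stable. TGFA was not a DEG without heifer A, B or D (0.0708, 0.0711 and 0.0539), and BTC not without heifer A, B, D or E (0.093, 0.105, 0.0518 and 0.131) or with DESeq2 (0.122). EGFR (-0.2), ERBB2 (-0.16) and ERBB3 (-0.27 on the log2 scale) were not DEGs.

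Of 24 tested WNT genes, 1 rose and 6 fell (median -0.07), against 7.52% and 6.62% of all genes. No WNT ligand was among these DEGs. The receptor FZD7 fell 1.77-fold (6.5 to 9.66 against 10.5 to 18.9 CPM, adjusted p = 0.0116, or 0.0636 without heifer B), and FZD3 (-0.48), FZD10 (-0.81), the secreted antagonist SFRP2 (-0.88), the transcription factor TCF7 (-0.74) and NKD1 (-2.58 on the log2 scale) fell too. DKK3, a secreted glycoprotein related to WNT antagonists, rose 3.83-fold from at most 1.92 CPM (adjusted p = 0.0134, or 0.0546 without heifer A). SFRP2 was not a DEG without heifer A, B or E (0.0691, 0.0568 and 0.0753) or without the pairing (0.0776). Of the WNT list, 3, 2 and 3 genes fell without heifers A, B and E. Of 21 tested genes of the transforming growth factor beta family, 1 rose and 5 fell (median -0.26), against 7.52% and 6.62% of all genes. The latent-binding proteins LTBP1 and LTBP3 were lower (4.27-fold and 1.44-fold) and LTBP2 was higher (2.39-fold, adjusted p = 0.0202). LTBP2 was lower ipsilaterally in heifer C and was not a DEG without heifer A, B or E (0.0707, 0.0816 and 0.0874), without the pairing (0.155) or with robust dispersions (0.137), and LTBP3 was not a DEG without heifer B (0.0512). SMAD3, which carries the signal to the nucleus, fell 1.55-fold (adjusted p = 0.0362), but not without heifer A, B, D or E (0.0764, 0.168, 0.0892 and 0.0783), without the pairing (0.0604) or with DESeq2 (0.0668). Of the transforming growth factor beta list, 1 gene fell without heifer B and 2 without heifer E, and none rose without heifer A, B or E.

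Genes of the circadian clock were lower ipsilaterally in 5 of 19 cases, against 6.62% of all genes, with none higher (median -0.39). PER3, a period gene, was at 9.6, 11.2, 6.31, 15.9 and 10.8 CPM ipsilaterally in heifers A to E and at 43.6, 42.2, 20.2, 28.9 and 38.1 CPM contralaterally (3.2-fold lower, adjusted p = 0.00102). NR1D2, a nuclear receptor that represses clock genes, was at 40.2 to 77.7 CPM against 71.2 to 146 CPM (2.22-fold lower, adjusted p = 0.0016), and DBP, a transcription factor driven by the clock, at 7.19 to 22.2 CPM against 19.2 to 44 CPM (2.54-fold lower, adjusted p = 0.00284). PER3 was separate between sides, and NR1D2 and DBP overlapped because heifer D was high ipsilaterally and heifer C low contralaterally. NR1D1, the paralogue of NR1D2, was at 1.8 to 3.14 CPM ipsilaterally and at 9.08 to 14.6 CPM contralaterally in 4 heifers, but at 2.61 CPM in the contralateral library of heifer C (3.6-fold lower, adjusted p = 0.00953, or 0.0565 without heifer B). The activators CLOCK (-0.07) and ARNTL (0.51), and PER1 (-0.11) and CRY1 (0.19 on the log2 scale), were not DEGs. Both sides came from the same heifer at the same time of slaughter.

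Guidance and adhesion genes held the lowest list median, -0.98 on the log2 scale, with 11 of 20 tested genes lower and none higher, against 6.62% of all genes. Like the other lists, this list was drawn up with earlier results of these data known, which limits that contrast. Beside SEMA5A and CDH13, ROBO2, a receptor of SLIT ligands, was at 10.5, 6.18, 8.99, 4.4 and 16.2 CPM ipsilaterally and at 35, 25.4, 22, 10.4 and 47.5 CPM contralaterally (2.99-fold lower, adjusted p = 0.00075). Heifers differed in level, so the sides overlapped, but the ratio was even among heifers. SEMA6A (-1.43), SEMA6D (-0.95), the plexin PLXNA2 (-1.2), ROBO1 (-1), the netrin NTN4 (-1.32), the adhesion molecule NRCAM (-1.05) and the protocadherin PCDH19 (-1.36 on the log2 scale) fell as well. DCHS1, a large cadherin of planar cell polarity, fell 3.55-fold (adjusted p = 0.0259), but not without heifer A, B or E (0.0794, 0.11 and 0.0942). The list medians were -1.38, -1.33, -0.48, -0.26 and -1.17 in heifers A to E, smaller in heifers C and D, and 7, 6 and 7 genes were DEGs without heifer A, without heifer B and without the pairing.

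For proliferation, the immediate early response and the interferon response, the shares of DEGs lay below the share of all genes that were DEGs (14.1%). Of 18 proliferation genes 1 fell (TYMS, 1.63-fold, adjusted p = 0.0329), of 13 immediate early genes 1 fell (MCL1, 1.37-fold, adjusted p = 0.00993), and of 18 interferon-response genes 1 rose (GBP4, 1.69-fold, adjusted p = 0.00231) and 1 fell (IFI44L, 1.66-fold, adjusted p = 0.02). TYMS was not a DEG without heifer A, B, D or E (0.0663, 0.094, 0.102 and 0.104), MCL1 not without heifer B (0.0555), and IFI44L not without heifer A, B or E (0.0701, 0.0713 and 0.0727) or without the pairing (0.108). MKI67 (0.42) and ISG15 (0.14 on the log2 scale), a marker of dividing cells and an interferon-induced ubiquitin-like protein, were not DEGs.

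Animals that the heifer comparison did not use gave the same direction for most DEGs. In the isthmus of non-lactating cows, 1846 of the 1903 heifer DEGs tested there (97%) had the same sign, against 75.1% of all genes tested in both, and 642 were DEGs in the same direction, which was 33.7% of the heifer DEGs and 62.4% of the DEGs of the non-lactating cows, where 7.48% of all genes were DEGs (3.83% higher and 3.66% lower ipsilaterally). In lactating cows 1861 of 1906 (97.6%) had the same sign, against 74.6% of all genes, and 259 were DEGs in the same direction, which was 13.6% of the heifer DEGs and 80.9% of the DEGs of the lactating cows, where 2.32% of all genes were DEGs (1.46% higher and 0.863% lower ipsilaterally). For the heifer DEGs, whose median absolute log2 fold change was 0.65 in heifers, the median in the heifer's direction was 0.48 in non-lactating and 0.4 in lactating cows. In all 3 groups 126 genes were up-regulated and 70 down-regulated ipsilaterally.

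Read the other way, the genes called in cows give a measure of each heifer that does not depend on the heifer comparison. Over the 1029 DEGs of non-lactating cows tested in heifers, the median log2 ratio in the cows' direction was 0.72, 0.93, 0.45, 0.43 and 0.79 in heifers A to E, and 93.3, 97.4, 77.8, 91.3 and 92.2% of these genes lay in that direction. Over the 320 DEGs of lactating cows it was 1, 1.32, 0.53, 0.61 and 1.13. All 5 heifers therefore showed the cows' direction for most of these genes, and heifers C and D to the smallest extent.

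Single genes had like or unlike differences in the cows. CAMK2B differed by 3.04 and 3.24 on the log2 scale in non-lactating and lactating cows (2.95 in heifers), LTF by 3.24 and 2.84 (3.11), SLC7A5 by 1.91 and 2.16 (2.15), and IRS1 by -0.94 and -1 (-1.11), each a DEG in both groups of cows. GADD45G differed by 4.61 in non-lactating cows (adjusted p = 0.000349) and by 1.45 in lactating cows (adjusted p = 0.153), and TUBB3 by 1.17 and 0.51 (adjusted p = 0.164 and 0.397), against 3.69 and 2.38 in heifers. No gene passed the test of the difference itself, 0 of 14476 for heifers against non-lactating cows (733 at an unadjusted p under 0.05, smallest adjusted p = 0.313; 2 DEGs with DESeq2) and 0 of 14620 for heifers against lactating cows (611 at an unadjusted p under 0.05, smallest adjusted p = 0.628; 1 DEG with DESeq2). This does not show that the side differences were equal in the 3 groups. Of the 120 named genes, 118 were tested in each group of cows, and 118 and 117 had the heifers' sign in non-lactating and lactating cows. The named genes include those the study drew as DEGs shared by all 3 groups, CAMK2B and IRS1 among them. A side difference in the cows was part of that choice, so their share of these counts is not independent evidence.

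**Figure D5:**
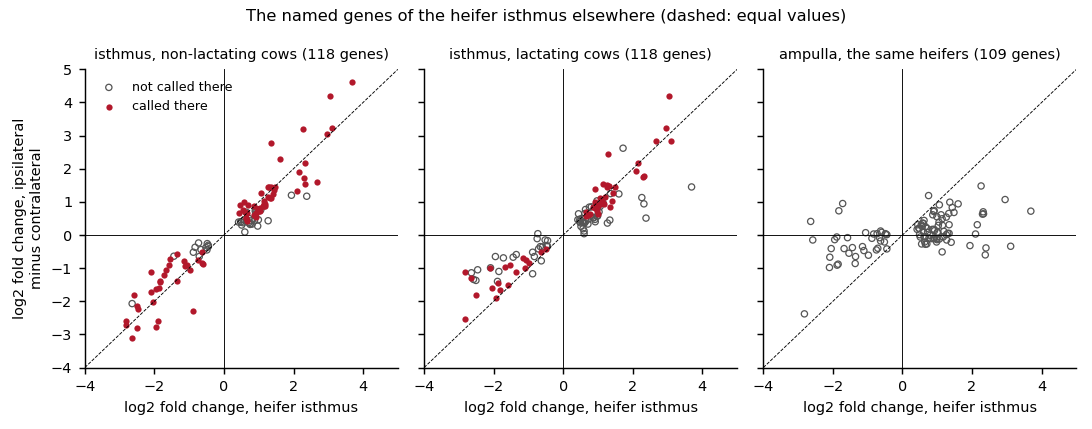
The log2 fold change (ipsilateral minus contralateral) of the named genes in the heifer isthmus (horizontal) is plotted against that in the isthmus of non-lactating cows (118 genes), of lactating cows (118 genes) and in the ampulla of the same heifers (109 genes); filled points are DEGs there and the dashed line marks equal values. In cows most points lie near the line, and 80 and 53 are DEGs, whereas in the ampulla most lie nearer to 0 than in the isthmus and none is a DEG. The points include genes that the study drew as DEGs shared by heifers and both groups of cows.

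In the ampulla of the same heifers, which was compared in the same way, 0 of 13626 genes were DEGs with edgeR (smallest adjusted p = 0.18, with 1264 genes at p under 0.05 before adjustment). DESeq2 gave 51. The ipsilateral ampulla library of heifer A resembled the isthmus libraries of a non-lactating cow (correlation 0.58 over the 200 genes) more than those of heifer A (0.12), while the other 9 ampulla libraries resembled their own heifer most (0.52 or more). Without heifer A the ampulla had 0 DEGs with edgeR (817 genes had p under 0.05 before adjustment) against 11 with DESeq2, and without heifer B it had 132 and 287. Of the 1818 isthmus DEGs tested in the ampulla, 1109 (61%) had the same sign there, against 51.8% of all genes, and their median log2 fold change in the direction of the isthmus was 0.07. Without heifer A in the ampulla, 57.2% had the same sign, against 50.4% of all genes, with a median of 0.05.

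The difference between the side effects of isthmus and ampulla passed the test for 9 of 14556 genes (0.0618%; 2284 at an unadjusted p under 0.05). GLUD1, mitochondrial glutamate dehydrogenase, rose 2.16-fold in the isthmus, from 226, 161, 347, 201 and 230 CPM to 450, 460, 676, 367 and 546 CPM, against -0.33 on the log2 scale in the ampulla (difference 1.45 ± 0.18, adjusted p = 0.00963). SEMA5A, one of the named genes, differed by -3.1 ± 0.46 (adjusted p = 0.0391), with 0.41 in the ampulla. CBS, an enzyme that makes cystathionine from homocysteine, UXS1, which makes UDP-xylose, DHRS4, a retinal reductase, CLDN1, a tight junction protein, SYNC, an intermediate filament protein, and TMEM171 rose in the isthmus (adjusted p of the difference 0.0391 each), and LOC101905099 fell. These genes other than SEMA5A were chosen after their values were seen. Without both ampulla libraries of heifer A 1 gene, GLUD1, still passed (difference 1.48, adjusted p = 0.047), with SEMA5A at -2.92 (adjusted p = 0.11). Without heifer A in both segments, or without heifer E, 0 genes passed the edgeR test (1665 and 1518 at an unadjusted p under 0.05), and DESeq2 called 259 genes with all libraries.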

How the data were processed

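Per the study's methods, total RNA of scraped epithelium was made into strand-specific libraries and sequenced as single reads, reads under 25 nt after trimming were removed, and the rest were placed on the cattle genome build Btau_4.6.1 by TopHat2 2.0.13, after which HTSeq 0.6.1 counted them per gene. The authors deposited raw counts per gene, with 5 summary lines per library, which were left out. No column lacked a group.

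Counts were tested with edgeR 4.0.16 in R 4.3.3 (TMM, filterByExpr with a minimum count of 10, quasi-likelihood F test, Benjamini-Hochberg adjusted p under 0.05 over all genes tested), with the heifer as a block, because both sides carry the tag of the same animal. Over 10659 genes, the deviations of both sides of a heifer from their side means correlated at 0.44, 0.43, -0.02, 0.44 and 0.4 in heifers A to E. The highest correlation of the ipsilateral library with the contralateral library of another heifer was 0.11, 0.11, 0.13, 0.19 and 0.35. In heifer C it was above that with its own contralateral library. Differences of side effects were tested as interactions. Libraries of a side differed by more than sampling noise (chi-square per degree of freedom at least 6.89). The depths are given above, and all values carry counting error beside the spread between heifers. On simulated counts with a 2-fold change (13323 genes), 162 of 199 changed genes were recovered (81.4%), with 18 false calls. The false calls were a larger share of all calls than the threshold of 0.05 aims at. Smaller changes, such as those of the 775 DEGs within 1.5-fold, were not simulated.

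From the DEGs that had a symbol, averaged at least 5 CPM and moved in the same direction in all heifers, the top 12 by log2 fold change in either direction were named, as were up to 4 DEGs per list, PGR, ESR1 and the genes the study drew for the isthmus. The members, lists and this rule were chosen with earlier results of these data known. Alternatives were other size factors, filters, dispersions, thresholds, DESeq2 1.42.0, no block, thinned counts, all 28 isthmus libraries and leaving out each heifer. Values of some genes are not reported here.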

Additional observations from a re-analysis of the deposited data

Results flagged for a closer look

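In 18 of the 240 groups of 5 libraries of the named genes, a single library stood apart from the other 4. Its gap to its nearest neighbour was more than 0.71 of the group's range, with levels on the log2 scale. Chance alone flags about 5% of such groups. For LTF (740 CPM), CAMK2B (406) and FABP3 (39.8) the contralateral library of heifer C was the highest but was not flagged on that scale. The contralateral library of heifer C stood apart for TUBB3 (8.71 CPM), ACP5 (110), TM7SF2 (29), DBI (59.2), TSTA3 (39) and TIMP1 (66.8), where it was the highest, and for NR1D1 (2.61), where it was the lowest. The ipsilateral library of heifer D was the lowest for FABP3 (32.3) and ACP5 (86.7) and the highest for OTOG (11.5) and NR1D2 (77.7 CPM). For each of these genes the library lay toward the levels of the other side. The contralateral library of heifer E was the highest for LTBP1 (146), NDUFA4 (31.1) and PGR (181 CPM), that of heifer A the lowest for MATN1 (5.84) and MANF (10.3 CPM), that of heifer B the lowest for KRT8 (226 CPM) and that of heifer D the lowest for GSTM1 (11.8 CPM).

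SEMA5A was flagged because its side difference in the isthmus differed from that in the ampulla of the same heifers, by -3.1 on the log2 scale (adjusted p = 0.0391, edgeR interaction test). Without both ampulla libraries of heifer A the difference was -2.92 (adjusted p = 0.11).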

How the results depend on the processing

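The 1916 DEGs became 845 at an unadjusted p under 0.001 and 638 to 2272 when heifers were left out in turn, fewest without heifer B. Under the other alternatives the count stayed between 1361 and 2729, with 51.8 to 57.3% of the DEGs higher ipsilaterally over all alternatives. Without the pairing by animal (no replicate block) it was 1361, of which 1288 were shared. The test of isthmus against ampulla gave 374 genes with no filter, 259 with DESeq2, 1 without both ampulla libraries of heifer A and 0 to 15 when heifers were left out. Heifers against non-lactating cows gave 25 genes with no filter and 2 with DESeq2, and heifers against lactating cows 64 and 1. The cause was not tested. Thinning to 2238157 counts, the smallest library, left 12140 genes tested and 1569 DEGs, of which 1441 were also DEGs at full depth. The part of depth in the lost calls was not tested.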
